A study of Bos taurus with 28 samples.

Results

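Iron handling in the liver was followed through 10 genes for iron storage, uptake and sensing: FTH1, FTL, TFRC, TFR2, SLC40A1, HFE, IREB2, ACO1, SLC39A14 and SLC11A2. The members are all probe sets, groups of short probes for 1 transcript, whose only annotated symbol is one of these names. This gave 7 probe sets for 7 genes, of 9155 genes that the array annotation names in this way. Each of these 7 genes had 1 probe set, which is therefore also its probe set of highest mean. SLC40A1, HFE and IREB2 matched no probe set by symbol, gene ID or accession and were not analysed here.

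The samples were liver biopsies of female, ovariectomized, dry Holstein cows, with 1 Affymetrix Bovine GeneChip for each biopsy and 7 arrays in each of 4 groups. E2T cows carried an ear implant releasing estradiol for 14 d, P4T cows carried intravaginal progesterone inserts for 14 d, E2P4T cows carried both, and CO cows received no hormone. The P4T labels call the exposure intradermal, whereas the treatment protocol names a vaginal device. The methods describe a Latin square in which each cow passed through every treatment with rest intervals between them, so the same animals recur in the groups, but the labels do not give the cow or the period of an array. Ages were not given in the sources used here. The ovariectomy is shared by all groups, CO included, so each comparison is of a steroid replaced against none. The values were signal intensities, here on a log2 scale, and 7 arrays a group limit the precision.

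Hepatocytes store iron in ferritin, a shell of heavy (FTH1) and light (FTL) chains. They take up transferrin iron through receptors and free plasma iron through membrane transporters, they export iron through ferroportin (SLC40A1), and they secrete hepcidin, the hormone that closes that export. Iron regulatory proteins, ACO1 and IREB2, bind iron-responsive elements when iron is scarce, which holds back the translation of ferritin mRNA and protects TFRC mRNA from decay, so much of the control of these genes lies beyond the amount of mRNA that an array reads.

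The liver label held on 27 of 28 arrays. On those arrays albumin (ALB) lay between 16.57 and 18.16. On E2P4T number 5, ALB was 12.06, and 18 of 19 hepatocyte markers and 9 of 10 Kupffer cell or macrophage markers lay below all the other arrays, whereas 9 of 10 kidney nephron markers lay above them, with CDH16, a cadherin of kidney tubules, at 14.42. On P4T number 4 the mean of the hepatocyte list was 15.43, against 15.04 to 15.69 on the other 26 arrays, but 5 of its 19 genes lay below those arrays and 3 above them. The Kupffer cell or macrophage list of P4T number 4 averaged 10.34, against 10.45 to 12.08, and its log2 ratio of 3′ to 5′ GAPDH control signal was 8.48, against 2.31 to 7.28. Hybridisation spikes averaged 17.31 on P4T number 4 and 18.27 on E2P4T number 5, against 12.95 to 16.26 on the others. The correlation of E2P4T number 5 with the other 26 arrays was 0.53 to 0.565 and that of P4T number 4 was 0.696 to 0.767, while all pairs among the 26 had 0.79 to 0.941. Markers of red blood cells were low throughout, with a list mean of 4.41 to 7.18 on the 26 arrays. Results are given over 28 arrays and over the 26 other than these 2. In bulk tissue, fewer cells of a type and less RNA per cell cannot be told apart.

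**Figure D1:**
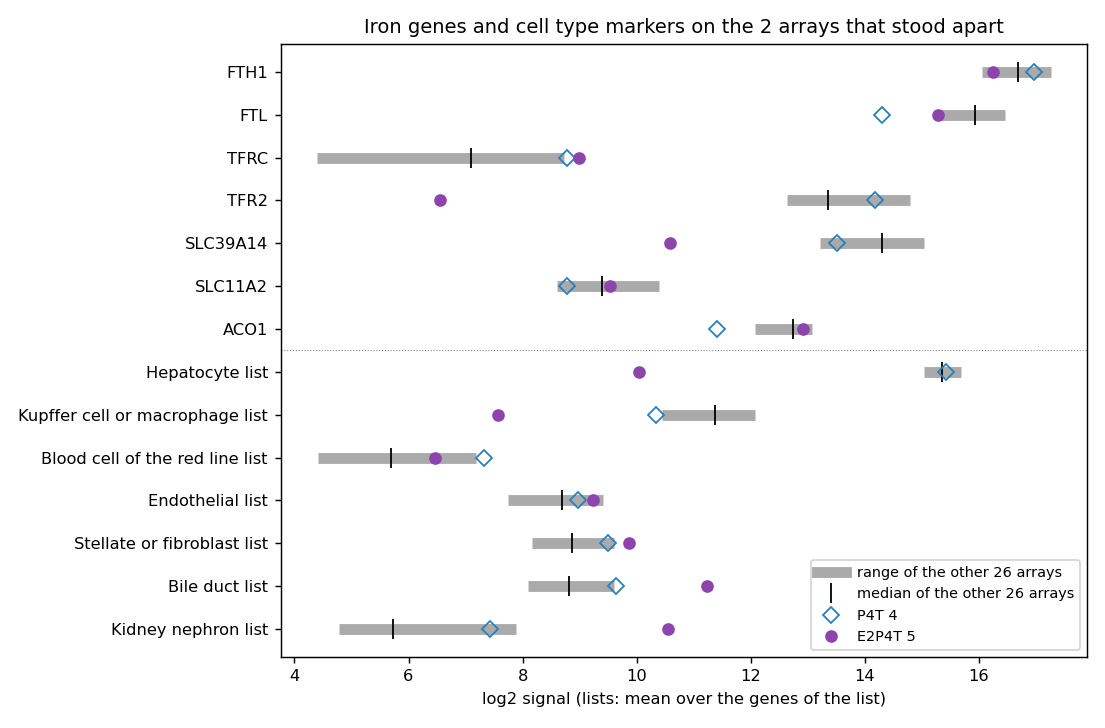
Log2 signal (horizontal axis) of the 7 iron genes and mean log2 signal of 7 cell type marker lists. Grey bars span the other 26 arrays, with their median as a tick, open diamonds are P4T number 4 and filled circles E2P4T number 5. TFR2 at 6.56, SLC39A14 at 10.58 and the hepatocyte list at 10.04 on E2P4T number 5 lie far left of the bars, and the kidney nephron list at 10.55 lies right of its bar.

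The iron genes divided sharply on E2P4T number 5. TFR2, the transferrin receptor that is known above all from hepatocytes and red cell precursors, was 6.56 on this array, against 12.63 to 14.79 on the other 26 arrays, a difference of -6.79 from their median. SLC39A14, the zinc transporter family member that brings iron not bound to transferrin into hepatocytes, was 10.58, against 13.22 to 15.03, so that it differed from the median by -3.73. The mean of the hepatocyte list was 10.04 there, against 15.04 to 15.69. TFRC, the transferrin receptor of most dividing cells, was higher on this array at 8.99, against 4.40 to 8.73. FTH1 at 16.25, FTL at 15.29, ACO1 at 12.91 and SLC11A2 at 9.53 lay within the range of the other arrays. FTL lay at the lower end of that range (lowest 15.28), and FTL and FTH1 differed from the median by -0.65 and -0.43. On an array whose spikes lay above all the others, a signal within the range does not show an equal amount of mRNA. On P4T number 4, FTL at 14.30 and ACO1 at 11.40 lay below the other 26 arrays (15.28 to 16.45 and 12.08 to 13.08), TFRC at 8.77 lay above them, and the other 4 genes lay within them. Of all 18517 probe sets tested, 14.3% lay below and 40.0% above the other 26 arrays on E2P4T number 5, and 13.0% below and 31.1% above on P4T number 4, so a member outside the range is common on these arrays and is not particular to iron genes.

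None of the 7 genes passed the test between a treatment and CO once p-values were adjusted over all probe sets. With limma and Benjamini-Hochberg adjustment, 0 of 7 members passed an adjusted p of 0.05 for E2T, P4T or E2P4T against CO or in the F test over these contrasts, and 0 of 18517 probe sets did so (0%). Without adjustment, 0 of 7 members had a p under 0.05 for any treatment, against 999 of all probe sets for E2T (5.4%), 510 for P4T (2.75%), 907 for E2P4T (4.9%) and 391 in the F test (2.11%). Over the 26 arrays the members again gave 0 of 7 in each test, adjusted or not. The background without adjustment was then 10.2% for E2T, 8.18% for P4T, 9.49% for E2P4T and 5.69% for the F test, and 0% with adjustment. The median difference of the 7 genes from CO was -0.18 for E2T, -0.26 for P4T and -0.29 for E2P4T on the log2 scale, against -0.10, -0.03 and -0.02 over all probe sets tested. Over 26 arrays these medians were -0.18, -0.13 and -0.10, against -0.10, -0.09 and -0.09. The 3 comparisons share the CO arrays.

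**Figure D2:**
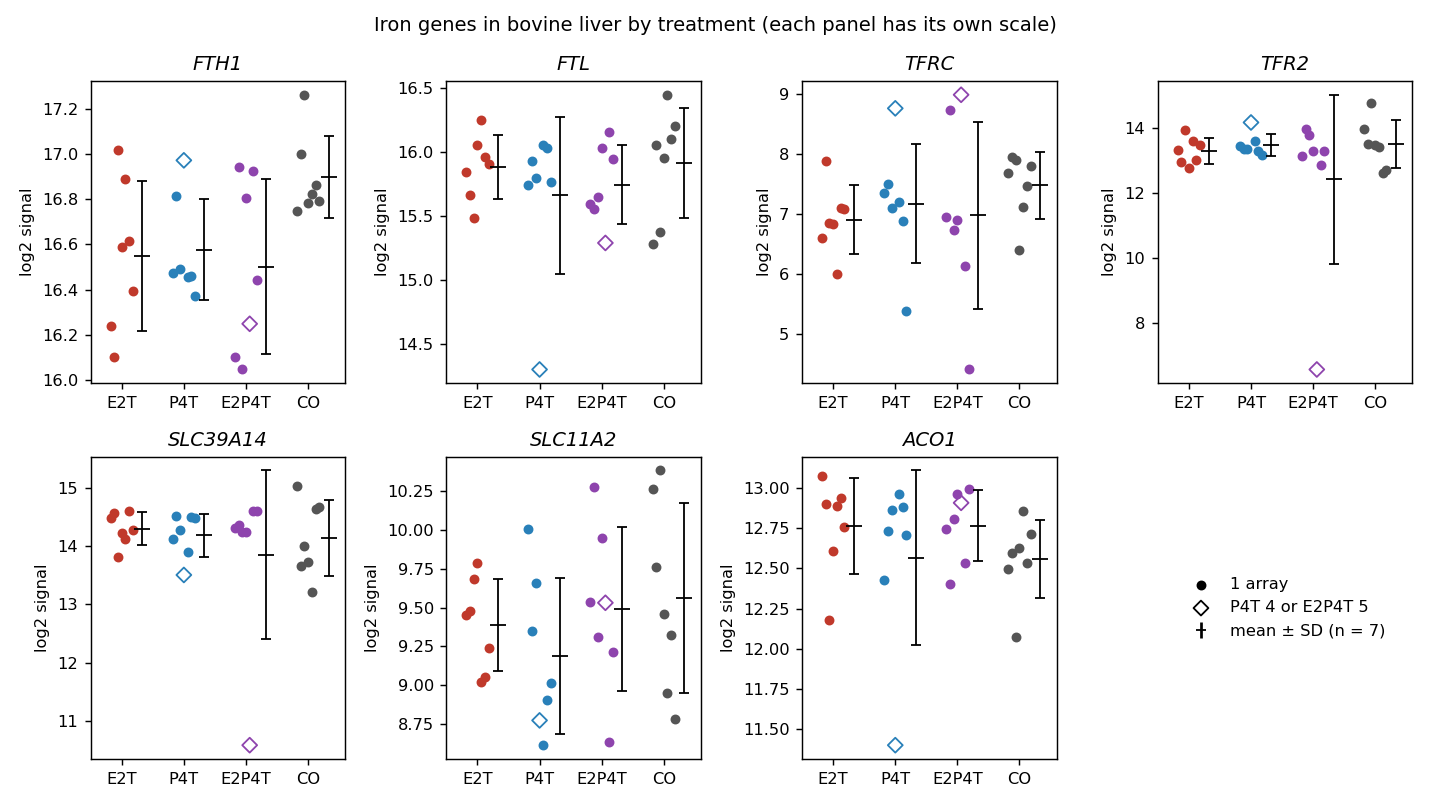
Log2 signal (vertical axis, a scale of its own in each panel) of the 7 iron genes on 28 arrays by group, with the mean and SD of the 7 arrays beside the points and open diamonds for P4T number 4 and E2P4T number 5. For FTH1 the lowest CO array is at 16.75 and 14 of 21 treated arrays lie below it, while the groups of the other genes overlap more widely. The share of all probe sets with such counts is not given here.

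Storage was represented by both ferritin chains. FTH1, the chain that oxidises incoming iron, ran from 16.10 through a median of 16.59 to 17.02 in E2T, from 16.37 through 16.47 to 16.97 in P4T, from 16.05 through 16.44 to 16.94 in E2P4T and from 16.75 through 16.82 to 17.26 in CO. It was thus high on every array, and the CO arrays stood in the upper part of the range. Below the lowest CO array lay 5 of 7 E2T, 5 of 7 P4T and 4 of 7 E2P4T arrays, and no treated array lay above the highest. The share of all probe sets with such counts is not given here. SLC25A28, a gene of the wider pathway, had 4, 5 and 5 of 7 below its lowest CO array, so the counts are not shown to be particular to FTH1. FTH1 differed from CO by -0.35 in E2T (0.786-fold, 95% CI 0.523 to 1.18), by -0.32 in P4T (0.801-fold, 95% CI 0.533 to 1.20) and by -0.39 in E2P4T (0.761-fold, 95% CI 0.506 to 1.14), each with an SE of 0.29, with adjusted p of 0.880, 1 and 0.932. Over 26 arrays the differences were -0.35, -0.39 and -0.35 with adjusted p of 0.514, 0.601 and 0.553 and unadjusted p of 0.0684, 0.0531 and 0.0759. With quantile normalization, which gives all arrays 1 distribution, the differences were 0.00 for E2T, -0.03 for P4T and -0.04 for E2P4T, so that the lower FTH1 was not present on that scale.

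FTH1 moved with a property of the whole array. The brightest 1% of probe sets, 240 in all, held 29.4 to 36.4% of the signal in E2T, 30.5 to 35.4% in P4T, 28.4 to 36.9% in E2P4T and 34.5 to 38.9% in CO over the 26 arrays. The log2 signal of FTH1, which held 0.17 to 0.35% of the signal of an array, followed this share with r = 0.98 (Spearman 0.95) when FTH1 itself was left out of it, and with r = 0.97 without the 2 arrays farthest from the median share. The relation held within the arrays whose label number is 1 to 4 (r = 0.99, n = 15) and 5 to 7 (r = 0.94, n = 11), a split described further on. FTH1 also went with the hybridisation spikes (r = 0.87) and the hepatocyte list (r = 0.82). The 26 points share cows that the labels do not name, so these values are descriptions. FTH1 is itself a bright probe set and followed other bright mRNAs as closely, such as C3 (r = 0.96). A close relation to the share is therefore not shown to be particular to FTH1. Quantile normalization removes the share together with every other difference in distribution, and the part of the share itself in the FTH1 difference was not tested.

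**Figure D3:**
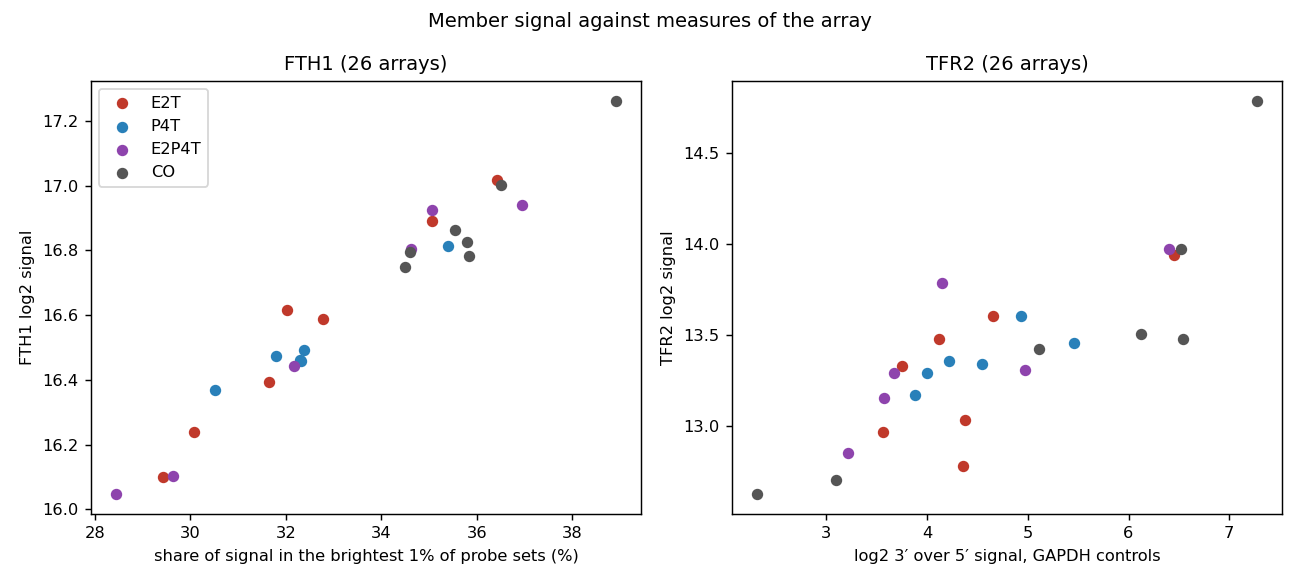
Left, FTH1 log2 signal (vertical axis) against the share of signal in the brightest 1% of probe sets in percent (horizontal axis), right, TFR2 log2 signal against the log2 ratio of the 3′ to the 5′ GAPDH control probe sets, for 26 arrays coloured by group. FTH1 follows the share with r = 0.98 and TFR2 follows the ratio with r = 0.82.

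FTL, the chain that helps the iron core to form, showed no such gap between CO and treated arrays. It ran from 15.48 through 15.90 to 16.25 in E2T, from 14.30 through 15.80 to 16.06 in P4T, from 15.29 through 15.64 to 16.15 in E2P4T and from 15.28 through 16.05 to 16.45 in CO. All groups overlapped, and 1 of 21 treated arrays, P4T number 4, lay below the lowest CO array. FTL differed from CO by -0.04 in E2T, -0.26 in P4T and -0.17 in E2P4T (SE 0.29, adjusted p 0.988, 1 and 0.975), and by -0.04, -0.03 and -0.10 over 26 arrays. With quantile normalization the signs turned to 0.16 in E2T and 0.06 in E2P4T. Over the 26 arrays FTH1 and FTL had r = 0.12, with -0.08 on arrays whose label number is 1 to 4 and 0.79 on those numbered 5 to 7.

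**Figure D4:**
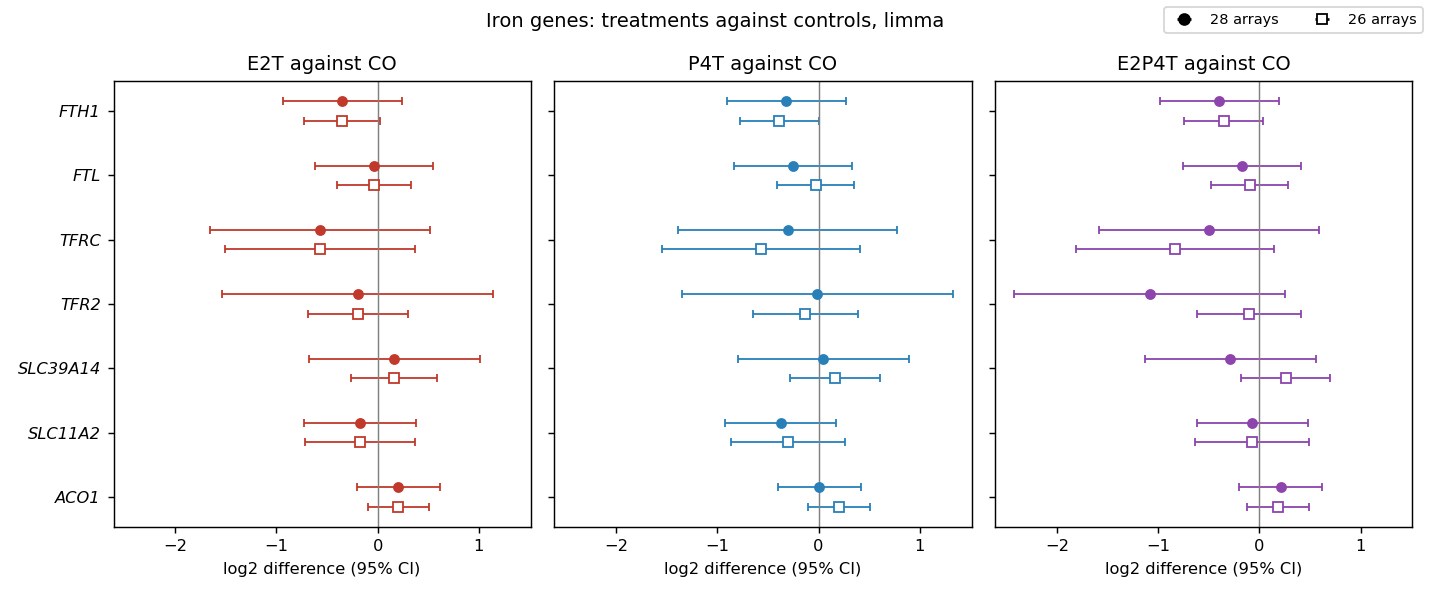
Log2 difference from CO with its 95% confidence interval (horizontal axis) for each iron gene in E2T, P4T and E2P4T, with filled circles for 28 arrays and open squares for 26. Every interval includes 0, and the TFR2 and SLC39A14 values of E2P4T move from -1.08 to -0.11 and from -0.29 to 0.26 when the 2 arrays are left out.

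Of the uptake genes, TFRC was near the limit of what was tested. It reached the log2 signal of 8.5 that qualified a probe set for testing on 3 of 28 arrays, namely E2P4T number 2, E2P4T number 5 and P4T number 4, so it entered the test through treated arrays and, over the 26, through 1 of them. TFRC ran from 5.99 through 6.84 to 7.89 in E2T, from 5.38 through 7.20 to 8.77 in P4T, from 4.40 through 6.89 to 8.99 in E2P4T and from 6.40 through 7.69 to 7.95 in CO. Of the treated arrays, 4 of 21 lay below the lowest CO array and 3 above the highest, so that treated arrays spread to both sides of CO. The differences from CO were -0.57 in E2T (0.673-fold, 95% CI 0.317 to 1.43), -0.31 in P4T and -0.50 in E2P4T (SE 0.53), with adjusted p of 0.887, 1 and 0.952. Over 26 arrays they were -0.57, -0.57 and -0.84 (SE 0.46 to 0.48) with adjusted p of 0.659, 0.722 and 0.564. Leaving out P4T number 7 alone gave -0.0072 in P4T, and leaving out E2P4T number 7 alone gave -0.07 in E2P4T, so that single arrays moved the TFRC values both ways. At a signal this low the fold has little precision, and the intervals include both a lower level and no difference.

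TFR2 was a bright probe set. It ran from 12.78 through 13.33 to 13.94 in E2T, from 13.17 through 13.36 to 14.18 in P4T, from 6.56 through 13.30 to 13.98 in E2P4T and from 12.63 through 13.48 to 14.79 in CO. The medians of the 4 groups lay close together, and CO had the widest range once E2P4T number 5 was set aside. TFR2 differed from CO by -0.19 in E2T, -0.01 in P4T and -1.08 in E2P4T (SE 0.66, adjusted p 0.972, 1 and 0.932). Without the 2 arrays the E2P4T difference was -0.11 (SE 0.25), the E2T difference -0.19 and the P4T difference -0.13, so E2P4T number 5 alone set the size of the first E2P4T value. With median centring the sign turned to 0.08 in E2T and 0.10 in P4T.

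TFR2 also went with 1 of 2 measures of how evenly a control transcript was read along its length. The log2 ratio of the 3′ to the 5′ GAPDH control probe sets spanned 3.56 to 6.45 in E2T, 3.88 to 5.46 in P4T, 3.21 to 6.40 in E2P4T and 2.31 to 7.28 in CO over the 26 arrays. TFR2 followed it with r = 0.82 (Spearman 0.80, and r = 0.81 without the 2 arrays farthest from the median ratio), and with r = 0.76 within numbers 1 to 4 and 0.87 within numbers 5 to 7. The same ratio of the actin control probe sets showed no such relation (r = -0.13, Spearman -0.01). The other members had r with the GAPDH ratio from -0.55 (ACO1) to 0.64 (SLC11A2), and the values over all probe sets are not given here. A relation to the ratio is therefore not shown to be particular to TFR2. In CO, numbers 1 to 4 had a mean ratio of 6.61 and a TFR2 mean of 13.94, and numbers 5 to 7 had 3.50 and 12.92. The sign of the TFR2 difference from CO depended on the numbers over the 26 arrays, with values within numbers 1 to 4 of -0.68 for E2T, -0.55 for P4T and -0.38 for E2P4T, and values within numbers 5 to 7 of 0.46, 0.44 and 0.15. The part of the GAPDH ratio in these values was not tested.

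SLC39A14 varied most within CO when E2P4T number 5 was set aside. It ran from 13.82 through 14.29 to 14.60 in E2T, from 13.51 through 14.28 to 14.52 in P4T, from 10.58 through 14.32 to 14.61 in E2P4T and from 13.22 through 14.01 to 15.03 in CO. Apart from E2P4T number 5, no treated array lay outside the CO range. Its differences from CO were 0.16 for E2T, 0.05 for P4T and -0.29 for E2P4T (SE 0.41, adjusted p 0.962, 1 and 0.969). Over 26 arrays they were 0.16, 0.16 and 0.26 (SE 0.21 to 0.22, adjusted p 0.786, 0.834 and 0.683), so that the E2P4T sign turned with 1 array. The E2P4T arrays other than number 5 had an SD of 0.17 (n = 6), against 0.66 for CO (n = 7).

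SLC11A2, the divalent metal transporter that moves iron out of endosomes and across the gut lining, was of moderate signal. It ran from 9.02 through 9.45 to 9.79 in E2T, from 8.61 through 9.02 to 10.01 in P4T, from 8.63 through 9.53 to 10.28 in E2P4T and from 8.78 through 9.46 to 10.39 in CO. No treated array lay above the highest CO array, and the groups overlapped almost wholly. The differences from CO were -0.18 for E2T, -0.37 for P4T and -0.07 for E2P4T (SE 0.27, adjusted p 0.930, 1 and 0.991), and -0.18, -0.30 and -0.08 over 26 arrays. With median centring the E2T sign turned to 0.10.

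Sensing was represented by ACO1, the cytosolic aconitase that becomes iron regulatory protein when it loses its iron-sulfur cluster. It ran from 12.18 through 12.89 to 13.07 in E2T, from 11.40 through 12.73 to 12.96 in P4T, from 12.41 through 12.81 to 12.99 in E2P4T and from 12.08 through 12.60 to 12.85 in CO. All treated medians were above the CO median, and 10 of 21 treated arrays (4 E2T, 3 P4T and 3 E2P4T) lay above the highest CO array, while 1 lay below the lowest. The share of all probe sets with such counts is not given here, so they are not shown to be particular to ACO1. ACO1 differed from CO by 0.21 in E2T, 0.01 in P4T and 0.21 in E2P4T (SE 0.20, adjusted p 0.890, 1 and 0.952), and the P4T value was -0.04 when arrays were quantile normalized. Over 26 arrays the differences were 0.21, 0.20 and 0.18 (SE 0.15, adjusted p 0.611, 0.697 and 0.675), so that the P4T value rested on number 4. ACO1 ran against the hybridisation spikes over the 26 arrays (r = -0.81), and the spikes averaged 13.94 in E2T, 13.76 in P4T, 13.90 in E2P4T and 14.56 in CO. The part of the spikes in the ACO1 values was not tested.

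The comparisons that do not rest on a single contrast with CO gave no member either. For E2T against P4T, 0 of 7 members had an unadjusted p under 0.05 (263 of all probe sets, 1.42%) and the lowest member p was 0.333, for ACO1. The main effect of estradiol, the mean of E2T and E2P4T minus that of P4T and CO, gave 0 of 7 (4% of all probe sets) with a lowest p of 0.162, again for ACO1. The main effect of progesterone gave 0 of 7 (1.65%) with a lowest p of 0.339, for FTL, and the interaction gave 0 of 7 (2.98%) with a lowest p of 0.218, for SLC11A2. No probe set passed an adjusted p of 0.05 in these comparisons (0% each). Over 26 arrays the members again gave 0 of 7 in each, with lowest p of 0.646, 0.226, 0.160 and 0.169 and backgrounds of 1.6%, 4.84%, 4.21% and 3.99%.

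A split within the groups was larger than any treatment difference for SLC11A2. Each label carries a replication number between 1 and 7 whose meaning is not stated, and numbers 5 to 7 were set against 1 to 4 because earlier results of these data had shown that they stand apart. SLC11A2 averaged 8.98 ± 0.24 on numbers 5 to 7 (SD, n = 11) and 9.76 ± 0.35 on numbers 1 to 4 (SD, n = 15) over the 26 arrays. There, 10 of 11 arrays numbered 5 to 7 lay below the lowest array numbered 1 to 4. Over 28 arrays only 2 of 12 did so, since P4T number 4 was the lowest of numbers 1 to 4 at 8.77. In a limma fit with the groups, numbers 5 to 7 minus 1 to 4 gave -0.77 (SE 0.14), and -0.67 (SE 0.15) over 28 arrays or -0.62 (SE 0.20) with median centring. Because the split was chosen from these same arrays, the values describe it, and p-values of the number term are no test of it. They are used here only to show that the split was not particular to SLC11A2. An adjusted p under 0.05 was given by 11.3% of all probe sets over the 26 arrays and by 5.09% over 28. SLC11A2 was among them, but not with median centring. FTL was among them only over the 26 arrays with quantile normalization.

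The other members were less divided by number. FTL on numbers 5 to 7 differed by 0.34 (SE 0.12), or by 0.31 with quantile normalization, TFR2 differed by -0.36 (SE 0.17) and TFRC by -0.73 (SE 0.32), all over 26 arrays. FTH1, SLC39A14 and ACO1 differed by 0.01, 0.10 and 0.17, and over 28 arrays by -0.04, -0.18 and 0.25, so the signs of FTH1 and SLC39A14 turned. For FTH1 the differences from CO in E2T, P4T and E2P4T were -0.46, -0.36 and -0.47 within numbers 1 to 4, and -0.20, -0.40 and -0.14 within numbers 5 to 7, so its sign was the same in both on the deposited scale. FTL changed sign, with 0.10, 0.16 and 0.04 within numbers 1 to 4 and -0.21, -0.30 and -0.20 within numbers 5 to 7. The GAPDH ratio was lower on numbers 5 to 7 (mean 3.94, against 5.19 on numbers 1 to 4), whereas the actin ratio was higher there (mean 3.23, against 2.57). Their part in the SLC11A2 difference was not tested.

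**Figure D5:**
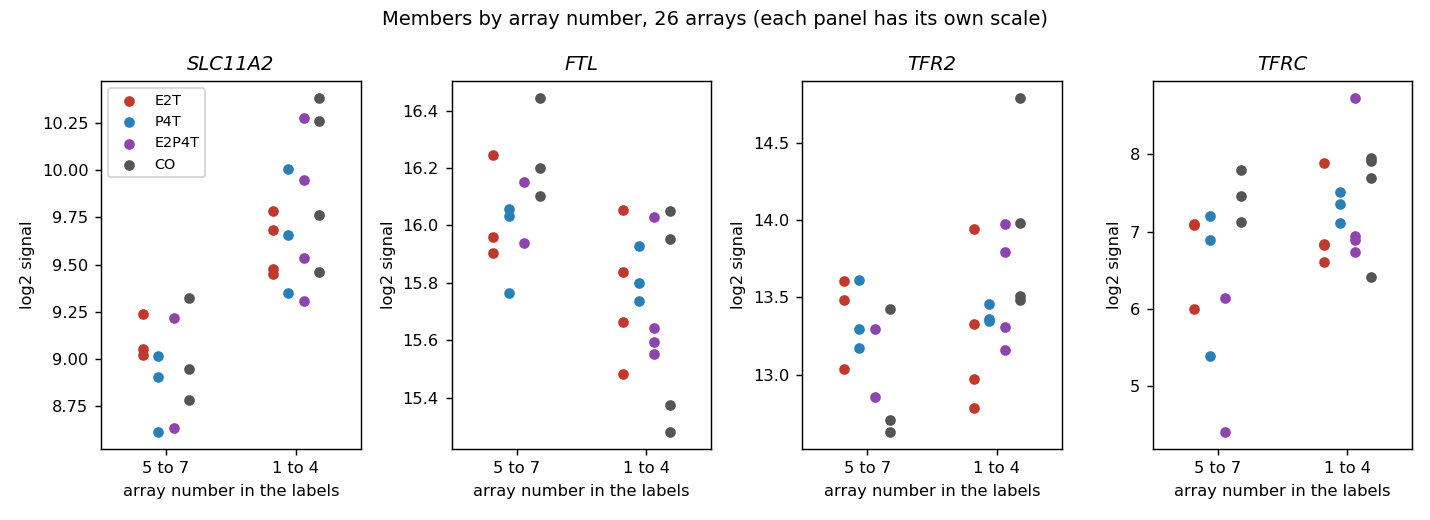
Log2 signal (vertical axis, a scale of its own in each panel) of SLC11A2, FTL, TFR2 and TFRC on 26 arrays, with arrays numbered 5 to 7 left and 1 to 4 right, coloured by group. For SLC11A2, 10 of 11 arrays numbered 5 to 7 lie below all arrays numbered 1 to 4, in every group. Over all 28 arrays, 2 of 12 do so.

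The genes most like each member were taken over the 26 arrays from 10744 tested probe sets with 1 symbol, by Pearson's r, as a description. FTH1 was nearest to C3, the central complement protein (r = 0.96), albumin (0.95) and transferrin, TF (0.95), all among the brightest mRNAs of liver. FTL was nearest to CYP2E1, a cytochrome P450 of hepatocytes (0.93), and to the plasma proteins AHSG (0.89) and SERPINA1 (0.86). ACO1 was nearest to SDHB, an iron-sulfur subunit of succinate dehydrogenase (0.89), and to the complex I subunits NDUFB6 (0.88) and NDUFC1 (0.88). TFR2 was nearest to MTCH1 (0.86), SLC39A14 to YY1 (0.91), TFRC to VPS33B (0.81) and SLC11A2 to CD2AP (0.90). SLC11A2 and CD2AP had 0.80 within numbers 1 to 4 and 0.32 within numbers 5 to 7, whereas ACO1 and NDUFC1 had 0.875 and 0.854. Over 28 arrays r was lower for FTH1 and C3 (0.51), FTL and CYP2E1 (0.45) and TFR2 and MTCH1 (-0.15). It was also lower for SLC39A14 and YY1 (0.71) and SLC11A2 and CD2AP (0.62). ACO1 and SDHB had 0.91 there, and TFRC and VPS33B had 0.81.

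Among the members themselves, FTH1 and ACO1 ran in opposite directions over the 26 arrays (r = -0.60), with -0.69 within numbers 1 to 4 and -0.46 within numbers 5 to 7. FTL and SLC11A2 had r = -0.69 over all 26, and -0.46 and -0.30 within the numbers. TFR2 and SLC39A14 had r = 0.75 over 28 arrays and -0.34 over 26, so that E2P4T number 5 set the first value. These arrays share cows and scaling, and no value here says that the genes act together.

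The wider iron pathway gave no called gene. Hepcidin itself, HAMP, matched no probe set and was not analysed here. Of 20 genes listed for hepcidin control, 8 were tested, and 0 passed an adjusted p of 0.05 for any treatment against CO. SMAD4, the common partner of the SMAD proteins that carry the BMP signal to the hepcidin gene, was the gene of this list with the lowest F test p (0.0284, adjusted p = 1). It ran from 10.34 through 10.78 to 11.21 in E2T, from 10.00 through 10.60 to 11.03 in P4T, from 10.52 through 10.78 to 11.07 in E2P4T and from 9.83 through 10.00 to 11.14 in CO. In 20 of 21 treated arrays it lay above the CO mean, but 1 CO array was higher than all but 1 of these. It differed from CO by 0.53 in E2T, 0.33 in P4T and 0.56 in E2P4T (SE 0.20, adjusted p 0.876, 1 and 0.932), with values of 0.43 to 0.53 over 26 arrays. ACVR2A, IL6R and STAT3, receptors and a transcription factor of the BMP and interleukin 6 routes to hepcidin, had unadjusted F test p of 0.480, 0.500 and 0.409. The median difference of the list was 0.08 for E2T, -0.10 for P4T and 0.08 for E2P4T. Over 26 arrays it was 0.08, 0.07 and 0.14, so the P4T sign turned.

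All 10 plasma carriers of iron and haem with a probe set were tested, and 0 passed the adjusted threshold. The list's median difference was -0.09 for E2T, -0.225 for P4T and -0.44 for E2P4T, against -0.10, -0.03 and -0.02 for all probe sets. Over 26 arrays it was -0.09, -0.23 and -0.11, against -0.10, -0.09 and -0.09. Without adjustment, 1, 0 and 2 genes were lower with a p under 0.05 (5.4%, 2.75% and 4.9% of all probe sets). Over 26 arrays 2, 1 and 1 were lower (10.2%, 8.18% and 9.49%), and 0 were higher in either. Haptoglobin, HP, which binds haemoglobin set free in plasma and is a strong acute phase protein of cattle, showed the widest spread. It ran from 7.69 through 10.74 to 12.81 in E2T, from 8.62 through 10.80 to 16.66 in P4T, from 8.87 through 9.38 to 16.61 in E2P4T and from 8.71 through 13.91 to 16.79 in CO. P4T and E2P4T thus held arrays near 9, but only number 2 of each lay above 16 (16.66 and 16.61). CO held arrays above 16, but only number 6 lay near 9 (8.71), and E2T held none above 13. HP differed from CO by -2.82 in E2T, -2.30 in P4T and -3.00 in E2P4T (SE 1.25, unadjusted p 0.0311, 0.0747 and 0.0225, adjusted p 0.876, 1 and 0.932), and by -2.82, -2.25 and -2.75 over 26 arrays.

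Transferrin, TF, the plasma carrier of iron, ran from 16.50 through 17.04 to 18.05 in E2T, from 16.73 through 16.89 to 19.47 in P4T, from 13.55 through 17.01 to 17.56 in E2P4T and from 17.08 through 17.33 to 18.42 in CO. As with FTH1, more than 3 arrays of each treatment (4, 5 and 4 of 7) lay below the lowest CO array. TF differed from CO by -0.41, -0.18 and -0.95 (SE 0.52, adjusted p 0.914, 1 and 0.932), by -0.41, -0.54 and -0.46 over 26 arrays, and by 0.00, 0.01 and -0.44 with quantile normalization. Ceruloplasmin, CP, the ferroxidase of plasma, differed by -0.22, -0.27 and -0.97 (SE 0.62), by -0.22, -0.11 and -0.06 over 26 arrays, and by 0.05 in E2T with median centring. Hemopexin, HPX, which binds haem, differed by -0.37, -0.39 and -1.19 (SE 0.56), and by -0.37, -0.36 and -0.37 over 26 arrays. On E2P4T number 5, TF was 13.55, CP 9.33 and HPX 10.23, all below the other 26 arrays. HMOX2, a haem oxygenase, differed by 0.05, -0.94 and -0.01, the last of which was 0.05 with quantile normalization, and by 0.05, -0.60 and -0.15 over 26 arrays. HMOX2 was of low signal, with a median of 7.93 on the 26 arrays. Its P4T arrays ran from 4.95 to 8.72 (SD 1.53, n = 7), so the P4T differences have little precision.

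The remaining lists held 14 tested genes of iron reduction, chaperoning and turnover, 19 of mitochondrial iron and iron-sulfur cluster assembly and 2 other mRNAs with an iron-responsive element, and 0 passed the adjusted threshold against CO. ISCA1, which helps to assemble mitochondrial iron-sulfur clusters, had the lowest F test p of these (0.0944) and differed from CO by 0.56 in E2T, 0.27 in P4T and 0.49 in E2P4T (SE 0.24, adjusted p 0.876, 1 and 0.932). Over 26 arrays the ISCA1 values were 0.56, 0.46 and 0.48. Its range was 11.03 to 12.35 in E2T, 10.27 to 11.91 in P4T, 11.15 to 11.82 in E2P4T and 10.54 to 11.97 in CO, so the groups overlapped. ISCA2 differed by 0.28, 0.20 and 0.51, FDX2, a ferredoxin, by -0.17 (0.10 with median centring), -0.12 and -0.48, and SLC25A28, a mitochondrial iron importer, by -0.32, -0.23 and -0.52. Over 26 arrays the values were 0.28, 0.17 and 0.33 for ISCA2, -0.17, -0.14 and -0.50 for FDX2, and -0.32, -0.42 and -0.32 for SLC25A28. EPAS1, whose mRNA carries an iron-responsive element, differed by 0.54, 0.25 and 0.15 (SE 0.32), and by 0.54, 0.48 and 0.46 over 26 arrays. CDC42BPA, the other tested gene of that list, differed by -0.85, -0.37 and -0.30 (SE 0.65). Over 26 arrays it differed by -0.85, -0.26 and -0.75, and there the P4T value was 0.14 with quantile normalization. CDC42BPA reached the log2 signal of 8.5 that qualified a probe set for testing only on E2P4T number 5 (9.1). It was at most 7.56 on the 26 arrays, so its differences over them compare signals below that limit. STEAP2 of the reduction list and ABCB8 of the mitochondrial list also reached 8.5 only on E2P4T number 5 (10.46 and 10.34). The iron chaperone relatives PCBP3 and PCBP4, the ubiquitin ligase HERC2 and KEAP1 had F test p of 0.147 to 0.424. The median difference of the mitochondrial list was 0.10 for E2T, 0.03 for P4T and 0.02 for E2P4T, and that of the reduction and chaperoning list was 0.14, 0.08 and 0.16, against -0.10, -0.03 and -0.02 for all probe sets tested. Over 26 arrays these medians were 0.10, 0.07 and 0.04, and 0.14, 0.07 and 0.15, against -0.10, -0.09 and -0.09. Without adjustment, these 2 lists, with 33 genes together, had 1 gene with a p under 0.05 in E2T (higher), 2 in P4T (1 higher and 1 lower) and 3 in E2P4T (2 higher and 1 lower), where 5.4%, 2.75% and 4.9% of all probe sets had one. Over 26 arrays the reduction and chaperoning list had 1 higher in E2T, 2 higher and 1 lower in P4T, and 1 higher in E2P4T. The mitochondrial list then had 2 higher and 1 lower in E2T, 1 higher and 2 lower in P4T, and 1 higher in E2P4T. The share of all probe sets was then 10.2%, 8.18% and 9.49%.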

How the data were processed

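The study's methods describe mRNA from each biopsy, labelled as biotinylated cRNA and hybridised to 1 array. The deposited values are linear signal intensity per probe set, which the authors computed in GCOS 1.4 by MAS 5.0. The middle 96% of values averaged 1000 on every array, no value was 0 or lower, and detection calls were not used here. No 2 arrays held identical values. Log2 signals were fitted in R 4.3.3 with limma 3.58.1 (lmFit, eBayes with a trend), all 4 groups together. Controls were left out of the 24128 probe sets, and 18517 of the remaining 24016 reached a log2 signal of 8.5 on at least 1 array and were tested, with Benjamini-Hochberg adjustment and a threshold of 0.05. The study's mixed model with cow and period was not run, since the labels give neither. The methods leave out an outlying array of P4T and of E2P4T. The labels do not say whether these are among the 28 arrays, which may all be ones that the study kept, and all 28 were used here. The p-values treat arrays as independent although cows recur, and measure only the spread between these arrays.

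The members, gene lists and tests were chosen with earlier results of these data known. Genes of the pathway lists were named by rule: HAMP, TF and CP, and the 4 tested genes of lowest F test p in each list. Each gene was read at its probe set of highest mean, with symbols from the array annotation where a probe set has exactly 1 (13292 probe sets). The fit was tested on simulated data. Alternatives were quantile normalization, median centring, 2 other filters, a pseudocount of 50, an ordinary linear model, fixed and random replicate blocks, array weights, a term for array numbers, only the groups compared, and each array or the 2 unlike arrays left out. Some alternatives were chosen after seeing the data, namely the omission of 4 arrays, and of the 2 arrays together with the block, the number term or quantile normalization. The normalization and centring of the number term were also chosen then.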

Additional observations from a re-analysis of the deposited data

Results flagged for a closer look

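In the 28 sets of 7 arrays (7 genes in 4 groups), the highest or lowest array was tested for a gap to its neighbour by Dixon's criterion, and 4 sets had such an array. Chance alone marks about 1 in 20. TFR2 was 6.56 on E2P4T number 5, against 12.85 to 13.98 on the other E2P4T arrays, and SLC39A14 was 10.58 on the same array, against 14.24 to 14.61. FTL was 14.30 on P4T number 4, against 15.74 to 16.06 on the other P4T arrays, and ACO1 was 11.40 there, against 12.42 to 12.96. All 4 fell on the 2 arrays that stood apart over all probe sets.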

How the results depend on the processing

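Over all 44 alternatives, 0 members passed an adjusted p of 0.05 in any comparison, and the lowest adjusted p of a member was 0.332 (FTH1 in E2T, with array weights). With the replicate number as a block, 0 members passed either. Same-numbered arrays deviated together (correlation over 0.1) in 13 of 42 pairs, and differently numbered arrays in 37 of 252. Since not every same-numbered pair passed, the number was not taken to pair samples. Without adjustment, FTH1 had a p under 0.05 in 5 cases: for E2T with the ordinary linear model (0.0359) and with 4 arrays left out (0.0469), for E2P4T with the ordinary linear model (0.0188) and array weights (0.0456), and for P4T with 2 arrays left out and the number term (0.0491). The share of all probe sets in these cases is not given here. With only the 2 unlike arrays left out it was 10.2% for E2T, 8.18% for P4T and 9.49% for E2P4T, so these cases are not read as a result about FTH1. Of 333 member differences with CO under settings other than single arrays left out, 311 kept their sign and side of the threshold and 22 turned sign, and the cause was not tested.

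With quantile normalization the turned values were FTL 0.161 and FTH1 0.001 in E2T, ACO1 -0.0356 in P4T and FTL 0.0578 in E2P4T. With median centring they were FTL 0.234, TFR2 0.0757 and SLC11A2 0.0953 in E2T and TFR2 0.102 in P4T. With quantile normalization and 2 arrays left out they were FTL 0.1585 and FTH1 0.0013 in E2T, FTL 0.106 in P4T, and SLC39A14 0.197, FTL 0.0475 and SLC11A2 0.0079 in E2P4T. With 4 arrays left out (P4T 4, E2P4T 5, CO 3, E2T 3) they were TFR2 0.0853 in P4T, and SLC39A14 0.235, TFR2 0.11 and SLC11A2 0.0622 in E2P4T. SLC39A14 in E2P4T was 0.35 with array weights and 0.26 with 2 arrays left out, 0.18 with the block added and 0.27 with the number term added. Leaving out single arrays gave -0.142 to 0.0523 for FTL and -0.34 to 0.0201 for TFR2 in E2T, -0.11 to 0.20 for SLC39A14, -0.0705 to 0.20 for ACO1 and -0.16 to 0.20 for TFR2 in P4T, and -0.44 to 0.26 for SLC39A14 and -0.20 to 0.0747 for SLC11A2 in E2P4T. Median centring moved the median of all probe sets in E2T to 0.17, against -0.10 as deposited. Each gene had 1 probe set, so a mean over probe sets was not run, and TFRC fell outside the brighter probe sets that the stricter filter kept. Low signal limits TFRC most.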
